A study of Mus musculus with 32 samples.

Results

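The comparison described here joins both changes of a 2 by 2 mouse study: livers of mice that carried a substitution in fatty acid amide hydrolase and ate a diet with added arachidonic acid were set against livers that had neither. Its members were chosen by label alone. They are the 8 libraries labelled FAAH S268D NASH-AA and the 8 labelled WT NASH, 16 of the 32 libraries of the series, and all 14903 expressed genes were tested. The other 16 libraries, 8 of WT NASH-AA and 8 of FAAH S268D NASH, carry 1 change each and served for the spread and for the tests against a single change. All groups share the tissue, whole liver, and 28 weeks on the diet that the labels call NASH and the series text HFFC, so a healthy liver is not among the controls. WT means wild type FAAH, S268D the amino acid substitution, and the suffix AA the diet with ARA, read here as arachidonic acid. The labels used here name no sex, strain background or number of animals. Nor do they state that each library is a different animal. The p-values therefore weigh only how much these libraries vary, and part of that may be technical.

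FAAH, an enzyme of internal membranes, breaks down fatty acid amides, among them anandamide, an arachidonic acid derivative that acts on cannabinoid receptors, and the N-acyl taurines, in which a fatty acid is joined to taurine. The S268D form is known from earlier work as one that handles N-acyl taurines poorly, so that they build up. Arachidonic acid is the parent of the prostaglandins, thromboxanes and leukotrienes, and it is also made in liver from linoleic acid by desaturases and elongases. A fatty liver under long dietary stress is known for recruited macrophages, scar formation by stellate cells, ductular change, and loss of the specialised programme of its hepatocytes.

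Levels are normalised CPM (counts scaled to a fixed library total), given as the lowest, the median and the highest of the 8 libraries of a group. Differences are log2 fold changes of FAAH S268D NASH-AA over WT NASH with their standard error (SE), and a gene is called where its adjusted p in limma-voom is under 0.05. Total counts ran from 20654111 to 24873207 in WT NASH and from 14743253 to 30885137 in FAAH S268D NASH-AA. In WT NASH-AA they ran from 20974889 to 34370178, and in FAAH S268D NASH from 3851628, in replicate 1, to 26662786. The first principal component of the 16 libraries held 36.5% of the variance and ordered them by group except for 2 that stood nearest the other side, WT NASH replicate 5 at 9.8 (the other 7 lay from -52.3 to -21.8) and FAAH S268D NASH-AA replicate 3 at -2.0 (the other 7 lay from 23.3 to 57.3). Results are given with both. Without both, counts in the lists below moved by over 1.5 times as follows: lower members of the cholesterol list from 2 to 6, interferon 5 to 8, stellate cell 19 to 30, sinusoidal 3 to 6, growth hormone 1 to 2 and clock 1 to 2. Higher members went from 1 to 2 in the taurine list, 2 to 4 in eicosanoids, 3 to 6 in lipid droplets, 4 to 8 in lipoproteins, 2 to 1 in fatty acid synthesis, 1 to 0 in antigen presentation and 0 to 1 in exocrine pancreas. Albumin mRNA (Alb) was at 31400, 39800 and 51400 CPM in WT NASH, as fits the labelled tissue, and every one of the 16 libraries held the Y-linked transcript Ddx3y (494 to 1215 counts) and at most 3 counts of Xist.

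Faah itself was measured at 133, 151 and 188 CPM in WT NASH and 166, 178 and 193 in FAAH S268D NASH-AA (ENSMUSG00000034171, chromosome 4, 115967145 to 116017926, minus strand, GRCm38). The groups overlapped, and the difference was 0.23 ± 0.06 (SE; adjusted p = 0.00389, limma-voom), a 1.18-fold higher level. An exchanged amino acid need not alter the amount of mRNA, so this value does not check the labels. On total counts without TMM normalisation the difference was 0.07 and was not called (adjusted p = 0.275).

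Of the 16 tested genes of fatty acid amide metabolism, 6 were called higher and 2 lower, with a median difference of -0.06. Over all genes tested 30.7% were called (13.9% higher and 16.8% lower), with a median of 0.016. Pm20d1, a secreted enzyme that joins fatty acids to amino acids, rose from 80.3, 101 and 140 CPM to 131, 149 and 157 CPM (0.55 ± 0.09, adjusted p = 7.52e-05). Abhd6, a hydrolase of monoacylglycerols including the endocannabinoid 2-arachidonoylglycerol, rose by 0.51 ± 0.14. Baat, which conjugates bile acids and fatty acids to taurine and glycine, rose by 0.33 ± 0.09 and its relative Acnat2 by 0.58 ± 0.18; both were chosen after their values were seen. The 2 members that fell make N-acyl ethanolamines: Napepld, the phospholipase D of that pathway, fell by 0.74 ± 0.22, and Gdpd1, a lysophospholipase D, by 0.98 ± 0.26. Napepld too was chosen after its value was seen.

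Taurine is the head group that N-acyl taurines carry. Of 6 tested genes of its synthesis and uptake 1 was higher and 1 lower (33.3% called, near the 30.7% of all genes tested). These 2 are neighbouring steps of the same route. Cdo1, the dioxygenase that oxidises cysteine, rose from 705, 836 and 1080 CPM to 921, 1090 and 1280 (0.36 ± 0.11, adjusted p = 0.0106), with overlap. Csad, the decarboxylase that follows it, stood at 112, 177 and 219 CPM in WT NASH and 48.5, 68.5 and 95.3 in FAAH S268D NASH-AA. Every mutant library on the ARA diet lay below every control library, and the fall was 2.42-fold (-1.27 ± 0.17, adjusted p = 1.01e-05). The transporters Slc6a13 (-0.11 ± 0.07) and, chosen after its value was seen, Slc6a6 (-0.04 ± 0.11) were not called.

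**Figure D1:**
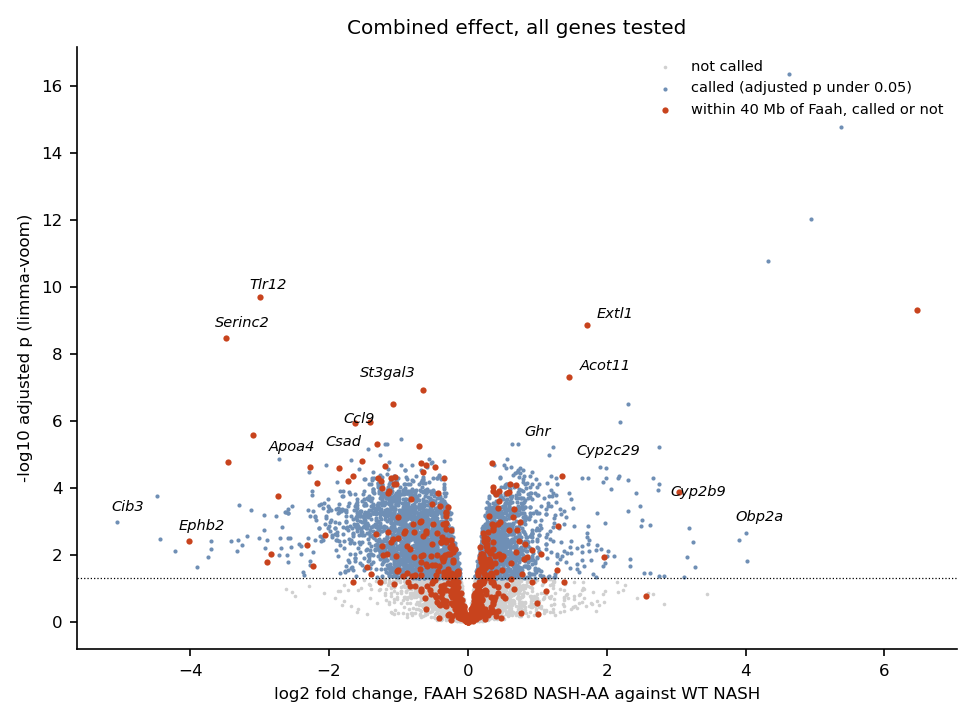
Each point is a gene: log2 fold change of FAAH S268D NASH-AA over WT NASH (x axis) against -log10 adjusted p from limma-voom (y axis), with the call threshold dotted and genes within 40 Mb of Faah in red. Calls lie on both sides (2070 higher, 2501 lower), the larger falls outnumber the larger rises, and the unlabelled points at the upper right are Gm6594, Ndufs5-ps, Gm7125, Gm4864 and Htr1d.

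Across all genes, 4571 of 14903 were called, 2070 higher and 2501 lower, and 6140 (41.2%) had an unadjusted p under 0.05. Most of these differences were modest, with a median size of 0.51 on the log2 scale. Of the 883 called genes that changed at least 2-fold, 721 were lower and 162 higher. In 425 genes (2.85%) all 8 libraries of a group lay beyond the 8 of the other, 162 of them higher (1.09%) and 263 lower (1.76%). Without WT NASH replicate 5 this count was 1694, and without FAAH S268D NASH-AA replicate 3 it was 897. Without both of them the calls came to 5576, of which 4471 were among the 4571. On total counts without TMM, where the median of all genes lay at -0.150, the split was 749 higher and 4704 lower.

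Genes near Faah on chromosome 4 were called more often. Of the 608 tested genes within 40 Mb of it, 233 were called (38.3%, against 30.3% of all other genes) and 42 did not overlap between the groups (6.91% against 2.68%). Whether these differences come from FAAH or from chromosome segments linked to it was not tested.

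Macrophage genes fell almost throughout. Of 25 tested markers of monocytes and of the lipid-laden macrophages of fatty liver, 24 were called lower and 0 higher, with a median of -1.28. The fall came in general phagocyte genes as well as in those of lipid-associated cells. Cd68, a lysosomal glycoprotein of macrophages, was at 23.3, 51.0 and 72.3 CPM in WT NASH and 12.5, 22 and 27.3 in FAAH S268D NASH-AA (-1.26 ± 0.20, adjusted p = 7.49e-05). A single control library, replicate 5, lay within the mutant range. Fcer1g and Tyrobp, signalling adaptors of myeloid receptors, fell by 1.23 ± 0.19 and 1.23 ± 0.20, and lysozyme (Lyz2, a close copy of Lyz1, between which reads may have been split) by 1.38 ± 0.21.

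Several genes of the lipid-associated state moved further; they were picked out after their values were seen. Gpnmb, a membrane glycoprotein of such cells, went from 9.89, 73.6 and 199 CPM to 2.78, 11.4 and 36.5 (-2.55 ± 0.69, adjusted p = 0.00578). Trem2, a lipid-sensing receptor, fell by 1.70 ± 0.49, and the elastase Mmp12 by 2.93 ± 0.61. The only member that was not called, likewise picked out, was Ly6c2 (-0.19 ± 0.27). In bulk liver, fewer cells of a type and less RNA per cell cannot be told apart.

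Resident Kupffer cell markers were called lower in part. Of 15 tested, 13 had a negative difference, 8 were called lower and 0 higher, with a median of -0.62. The complement subunits C1qa, C1qb and C1qc, which sit beside each other on chromosome 4 within 40 Mb of Faah, fell by 1.05 ± 0.16, 1.07 ± 0.17 and 1.03 ± 0.17. C1qa went from 58.9, 99.3 and 155 CPM to 37.7, 52.4 and 63.9. Not called were 2 narrow markers of the resident cell, the lectin Clec4f (-0.20 ± 0.18) and the phosphatidylserine receptor Timd4 (-0.15 ± 0.46). These 2 were chosen after their values were seen.

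Chemokines, cytokines and adhesion molecules were lower in 24 of 28 tested and higher in 0, with a median of -1.22. The score of the list, the mean of its members' log2 levels relative to all 32 libraries, ran from -1.08 to -0.20 in FAAH S268D NASH-AA and from -0.19 to 1.14 in WT NASH, where replicate 5 was the lowest and the next at 0.56. Ccl9, a chemokine of myeloid cells, fell from 18.2, 34.9 and 42.3 CPM to 12, 14.3 and 18.3 (-1.19 ± 0.15, adjusted p = 4.83e-06). For Cxcl16, which binds CXCR6 on T cells, the groups did not overlap: 13.6, 24.5 and 33.3 CPM against 8.51, 11.4 and 13 (-1.14 ± 0.16). Ccl3, a macrophage chemokine, fell 4.90-fold without overlap (-2.29 ± 0.34), from a median of 1.24 CPM to 0.254 CPM. Casp1, the protease that matures interleukin-1β, fell by 0.83 ± 0.14, also without overlap. The classical inflammatory genes Ccl2 (-2.01 ± 0.39), Il1b (-1.44 ± 0.29) and Tnf (-1.34 ± 0.37), chosen after their values were seen, were each called lower. Cxcl1 (0.55 ± 0.25) and Il18 (0.25 ± 0.12), also chosen after their values were seen, were not called.

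Promoter sequence was read for the cytokine list because its members moved together and because nuclear factor κB, whose sites these genes are known for, has a short recognisable motif. The 250 bases before the start of transcription were taken from RefSeq (GRCm38.p6). The letters GGAATTTCC, on either strand, were in 4 of the 22 members with a sequence (18.2%: Cxcl1, Cxcl2, Cxcl10 and Icam1) and in 0.421% of 10935 tested genes with one. The other κB motif searched, that of the immunoglobulin κ light chain enhancer, was on either strand in 0 of the 22 and in 0.21% of the tested genes. Both were among 13 motifs searched, and they were chosen with the values known. Of the 4 members, Cxcl10 (-0.91 ± 0.23), Icam1 (-0.91 ± 0.15) and Cxcl2 (-1.11 ± 0.37) were called lower and Cxcl1 was not called; all 4 were chosen after their values were seen. A match describes the letters and does not show a site in use. The 2 shown are an adhesion molecule, Icam1 (chr9:21015690-21015939, plus strand), and an interferon-induced chemokine, Cxcl10 (chr5:92348890-92349139, minus strand), each written 5′ to 3′ along its gene with the match in capitals.
Icam1: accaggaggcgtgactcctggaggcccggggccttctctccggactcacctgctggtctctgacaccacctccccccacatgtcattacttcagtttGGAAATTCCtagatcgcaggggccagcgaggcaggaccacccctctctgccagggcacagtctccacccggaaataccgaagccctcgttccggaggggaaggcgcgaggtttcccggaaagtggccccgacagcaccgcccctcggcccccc
Cxcl10: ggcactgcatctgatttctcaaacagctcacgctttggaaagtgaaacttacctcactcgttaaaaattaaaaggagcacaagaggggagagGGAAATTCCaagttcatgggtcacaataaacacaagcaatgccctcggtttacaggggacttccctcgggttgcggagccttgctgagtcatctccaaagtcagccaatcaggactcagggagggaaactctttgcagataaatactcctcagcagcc
Icam1 itself went from 18.3, 34.1 and 39.8 CPM to 11.5, 16.6 and 20.9, and Cxcl10 from 4.37, 8.39 and 9.54 to 2.42, 4.61 and 6.05; in both genes the highest mutant library passed the lowest control library.

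Antigen presentation genes were lower too. Of 18 tested members, 14 were called lower and 1 higher, with a median of -0.92. H2-DMa, part of the complex that loads peptide onto MHC class II, went from 5.48, 14.3 and 19.1 CPM to 3.31, 5.32 and 7.36 (-1.28 ± 0.26, adjusted p = 0.000551). Cd86, a costimulatory ligand, fell by 0.87 ± 0.18 and Clec9a, a receptor of cross-presenting dendritic cells, by 0.60 ± 0.12. The member called higher, Siglech of plasmacytoid dendritic cells (0.58 ± 0.22, chosen after its values were seen), had a median of 0.868 CPM in FAAH S268D NASH-AA, and no member was called higher in 11 of the 16 fits that left out 1 library. H2-DMb1 has a close copy, H2-DMb2, with which it may share reads.

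Lymphocyte genes moved less evenly. Of 13 tested T and NK cell markers 4 were called lower, and 8 without WT NASH replicate 3, 7 without WT NASH replicate 1 or 5. The T cell coreceptor chain Cd8a fell from 0.465, 1.35 and 3.05 CPM to 0.0694, 0.269 and 0.832 (-2.12 ± 0.55, adjusted p = 0.00389), and the cytotoxic granule protease Gzmb by 2.04 ± 0.44. Of the 11 tested B and plasma cell markers 0 were called in limma-voom, 0 had an unadjusted p under 0.05, and the median was -0.00. Neutrophil markers were 3 of 3 lower, but 1 of 3 without WT NASH replicate 7; Csf3r, the receptor of granulocyte colony-stimulating factor, within 40 Mb of Faah, fell by 1.15 ± 0.20. Of 25 interferon-response and MHC class I genes 5 were lower, among them the antiviral GTPase Gbp2 (-1.0 ± 0.21) and Ifit2 (-0.93 ± 0.20); the count was 11 without WT NASH replicate 5 and 10 without FAAH S268D NASH-AA replicate 6.

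**Figure D2:**
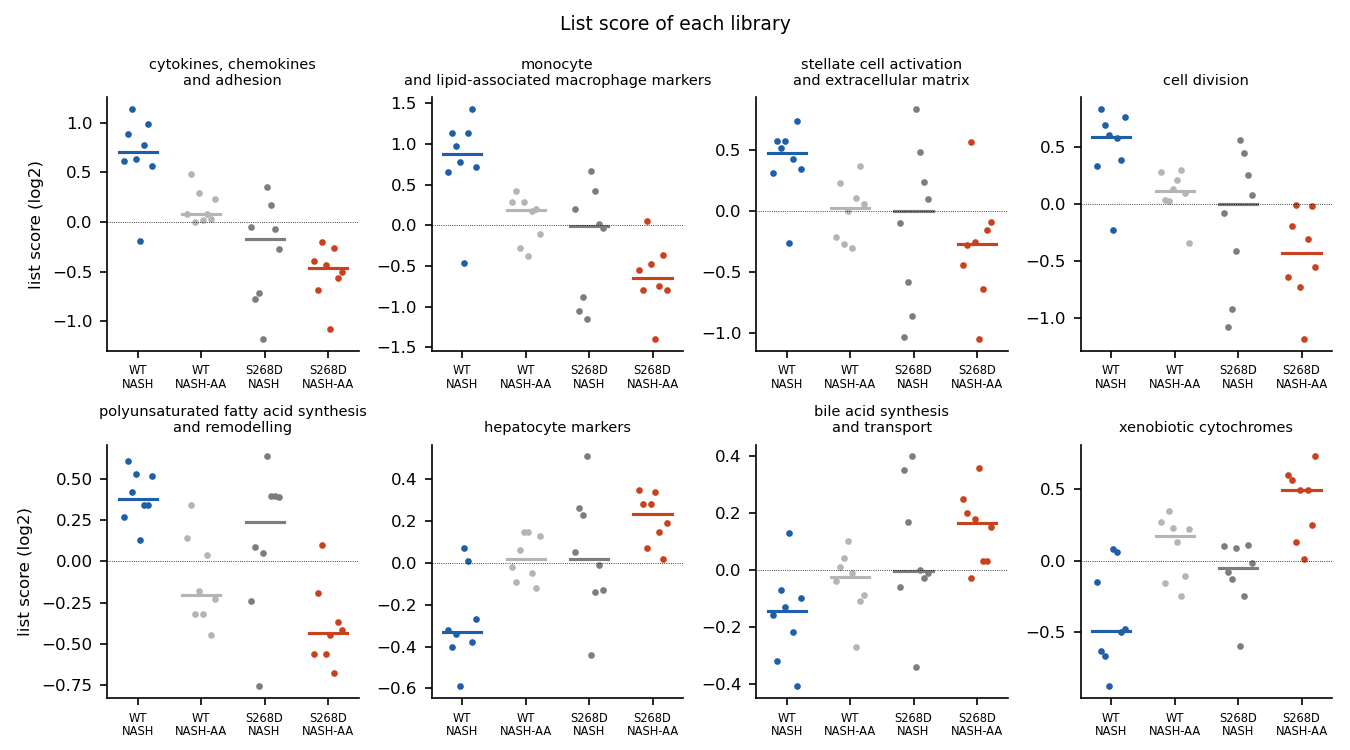
List score of each library (y axis, mean over members of log2 CPM less the gene's mean in all 32 libraries) in the 4 groups (x axis), with bars at the group medians. WT NASH in blue and FAAH S268D NASH-AA in red (groups with 1 change in grey) lie apart in the cytokine and the polyunsaturated fatty acid panels and overlap in the others, and the low blue point of the immune panels is WT NASH replicate 5.

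Stellate cell and matrix genes were called lower in part. Of 35 tested genes of stellate cell activation and matrix, 19 were called lower and 1 higher (median -0.69), and 30 were lower without the 2 crossing libraries. With library numbers 1 to 16 alone 2 were called lower, and with library numbers 17 to 32 alone 15. The membrane metalloprotease Mmp14 went from 30.9, 49.3 and 62.1 CPM to 23.2, 26.5 and 39.1 (-0.79 ± 0.15, adjusted p = 0.00035). Col4a1, a basement membrane collagen, fell by 0.91 ± 0.20, the intermediate filament Vim of mesenchymal cells by 0.84 ± 0.17, and the proteoglycan Dcn by 0.50 ± 0.12. The main fibrillar collagen gene Col1a1 had 48.3, 106 and 139 CPM against 13.8, 46.0 and 125, and its difference of -1.04 ± 0.42 was not called (adjusted p = 0.0568). Acta2, the smooth muscle actin used to mark myofibroblasts, stood at -0.10 ± 0.30, and fibronectin (Fn1), which hepatocytes also make, rose by 0.34 ± 0.11. These 3 were chosen after their values were seen.

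Ductular and oncofetal genes were called lower in part. All 16 cholangiocyte and ductular markers tested had negative differences, and 8 were called lower and 0 higher (median -0.78). Krt18, a keratin of hepatocytes and ducts, was at 275, 372 and 451 CPM against 137, 174 and 234 without overlap (-1.06 ± 0.17, adjusted p = 7.1e-05), and its partner Krt8, which has a processed copy, fell by 0.92 ± 0.16. E-cadherin (Cdh1) fell 4.42-fold (-2.14 ± 0.41) and osteopontin (Spp1), made by ducts and macrophages, by 1.56 ± 0.36. Among narrow duct markers, Krt7 (-0.13 ± 0.34) and Krt19 (-0.17 ± 0.35), chosen after their values were seen, were not called. Of 12 genes known from fetal liver and liver tumours 8 were lower and 0 higher (median -0.93). Cib3, a calcium-binding protein, fell most, from 0.865, 9.21 and 17.9 CPM to 0.0488, 0.202 and 0.706, a 33.1-fold fall without overlap (-5.05 ± 1.11, adjusted p = 0.00102). Ly6d, a surface protein of the Ly6 family, went from 26.9, 92.2 and 144 CPM to 1.52, 11.1 and 29.4 (-3.01 ± 0.75). Of 18 sinusoidal endothelial markers 3 were lower (5 without WT NASH replicate 5), with a median of -0.07. That share, 16.7%, is near the 16.8% lower over all genes tested.

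Cell division genes were lower in 18 of 25 members tested, with a median of -1.10. The kinesin Cenpe, which moves chromosomes to the metaphase plate, went from 0.824, 1.85 and 2.46 CPM to 0.224, 0.578 and 0.933 (-1.56 ± 0.31, adjusted p = 0.00048). Aurkb, the mitotic kinase, fell by 1.60 ± 0.33, Tpx2, a spindle assembly factor, by 1.41 ± 0.29, and topoisomerase Top2a by 1.29 ± 0.28. Of the genes of DNA synthesis, Pcna (-0.15 ± 0.07) and Tyms (0.06 ± 0.10), both chosen after their values were seen, were not called. Most members are low in liver, with medians in WT NASH from 0.550 CPM (Bub1) to 25.6 CPM (Pcna).

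Genes of the mitotic phase are known for CCAAT boxes bound by nuclear factor Y, which lie close to the start. On either strand the letters CCAAT were in 18 of 21 members with a sequence (85.7%), in 40.5% of all tested genes with one and in 33.8% of the 32851 promoters of the table. Shown are Cenpe with 1 match (chr3:135212313-135212562, plus strand), Top2a with 6 (chr11:99024190-99024439, minus strand) and the cyclin Ccnb1 with 2 (chr13:100786487-100786736, minus strand), which make plain how differently such letters are repeated among genes that fell alike. Capitals mark CCAAT and, on the other strand, ATTGG; both are again from RefSeq, GRCm38.p6.
Cenpe: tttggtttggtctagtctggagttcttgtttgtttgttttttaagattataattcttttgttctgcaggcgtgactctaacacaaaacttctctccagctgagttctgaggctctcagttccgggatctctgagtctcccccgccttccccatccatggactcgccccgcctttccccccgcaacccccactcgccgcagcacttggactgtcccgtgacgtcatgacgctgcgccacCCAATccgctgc
Top2a: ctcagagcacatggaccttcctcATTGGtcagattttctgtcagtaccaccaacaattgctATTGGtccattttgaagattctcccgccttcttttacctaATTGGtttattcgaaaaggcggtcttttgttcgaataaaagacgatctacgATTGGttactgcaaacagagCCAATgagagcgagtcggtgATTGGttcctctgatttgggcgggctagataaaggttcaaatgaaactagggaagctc
Ccnb1: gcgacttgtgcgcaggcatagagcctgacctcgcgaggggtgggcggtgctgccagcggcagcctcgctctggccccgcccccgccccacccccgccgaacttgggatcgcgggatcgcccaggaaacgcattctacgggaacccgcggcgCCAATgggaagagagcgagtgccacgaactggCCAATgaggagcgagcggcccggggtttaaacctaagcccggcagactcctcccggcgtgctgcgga
Ccnb1, chosen after its values were seen, fell by 1.60 ± 0.36. The search covered 13 motifs and 7 lists, all chosen with the values known, and the match draws nothing about the factor.

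Of 15 p53 targets, genes of growth arrest and damage, 7 were lower, 0 higher and 8 not called (median -0.34). The cell cycle inhibitor Cdkn1a stood at 10.5, 18.7 and 27.8 CPM against 2.01, 4.35 and 7.80, a 3.95-fold fall without overlap (-1.98 ± 0.47, adjusted p = 0.00188), and Pmaip1, a mitochondrial death gene also known as Noxa, fell by 1.35 ± 0.21 without overlap. In the unfolded protein and integrated stress response 3 of 17 were higher and 3 lower (35.3% called, near the 30.7% of all genes tested). The lower ones were the stress factor Atf3 (-1.83 ± 0.37), asparagine synthetase Asns (-1.85 ± 0.38) and Psat1 of serine synthesis (-1.60 ± 0.37). Edem1, which clears misfolded glycoproteins, rose by 0.37 ± 0.10. Of 19 NRF2 and glutathione genes 1 was higher and 7 lower, and 4 were lower when WT NASH replicate 2 or 3 or FAAH S268D NASH-AA replicate 2 or 4 was left out. Haem oxygenase Hmox1 fell by 0.74 ± 0.16 and Nfe2l2, which encodes NRF2, by 0.42 ± 0.11 without overlap.

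**Figure D3:**
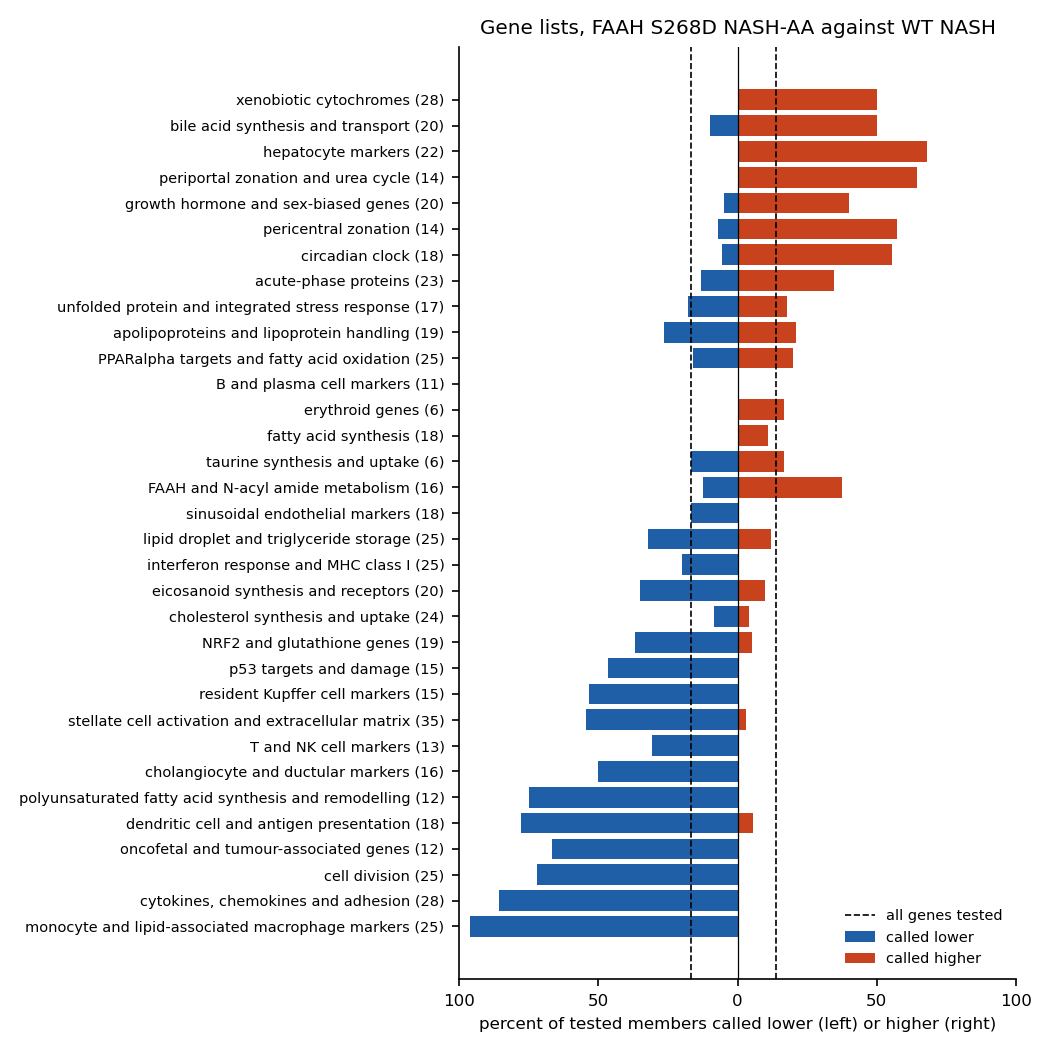
Percent of tested members of each gene list called lower (blue, left) or higher (red, right), for lists with at least 6 tested, ordered by median difference with the number tested in brackets; dashed lines give the same over all genes tested (16.8% lower, 13.9% higher). Among the lists drawn, macrophage and cytokine lists reach furthest to the left and hepatocyte markers furthest to the right; the neutrophil list, with 3 members, is not drawn.

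Most tested genes of polyunsaturated fatty acid synthesis and phospholipid remodelling were lower in FAAH S268D NASH-AA than in WT NASH, groups that differ in diet and genotype. Of 12 tested members of polyunsaturated fatty acid synthesis and remodelling, 9 were called lower and 0 higher (median -0.88). The list scores did not overlap, by a narrow margin: -0.68 to 0.10 in FAAH S268D NASH-AA and 0.13 to 0.61 in WT NASH. No single member was without overlap. Fads2, the first desaturase of the route, went from 691, 1290 and 1440 CPM to 303, 488 and 844 (-1.33 ± 0.30, adjusted p = 0.00144). Fads1, which makes arachidonic acid itself and was chosen after its values were seen, went from 260, 566 and 626 CPM to 70.2, 187 and 372 (-1.52 ± 0.39). In both the lowest control library lay inside the mutant range. Acsl4, which activates arachidonic acid, fell by 0.62 ± 0.14, and the lysophospholipid acyltransferases Lpcat1 and Lpcat2 by 0.89 ± 0.16 and 0.96 ± 0.22. Lpcat3, the liver enzyme that places arachidonic acid in phosphatidylcholine, and Mboat7, which does so in phosphatidylinositol, were not called (-0.07 ± 0.11 and 0.00 ± 0.05) and were also chosen after their values were seen.

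Downstream, 7 of 20 eicosanoid genes were lower and 2 higher, the latter 1 in 10 of the 16 fits that left out 1 library. The median was -0.27, and 0.11 under a stricter filter, which tests fewer low genes. The phospholipase Pla2g4a, which frees arachidonic acid from membranes, fell from 1.48, 3.26 and 3.53 CPM to 0.833, 1.21 and 2.01 (-1.16 ± 0.20, adjusted p = 0.000145). Thromboxane synthase Tbxas1 fell by 1.21 ± 0.23, the haematopoietic prostaglandin D synthase Hpgds by 1.55 ± 0.34, and the prostaglandin E2 receptor Ptger4 by 1.30 ± 0.26. These genes are expressed in leukocytes, whose markers fell in the same libraries; their part in the result was not tested.

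Lipid storage changed in a few strong members. Of 25 lipid droplet genes 8 were lower and 3 higher (6 without WT NASH replicate 5), with a median of -0.22. Cidec, which fuses lipid droplets, stood at 96.7, 142 and 177 CPM against 5.64, 28.1 and 56.0, without overlap (-2.68 ± 0.61, adjusted p = 0.00152). Its relative Cidea, hardly made in lean liver, went from 11.1, 26 and 82.0 CPM to 0.179, 1.77 and 16 (-3.74 ± 1.13). The droplet coat protein Plin5 fell little but without overlap (-0.35 ± 0.07), and lipoprotein lipase Lpl fell by 1.40 ± 0.30. Dgat2, which makes triglyceride, rose from 353, 401 and 522 CPM to 498, 660 and 706 (0.62 ± 0.09, adjusted p = 2.37e-05).

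Lipid synthesis showed little that passed. Of 18 fatty acid synthesis genes 2 were higher and 0 lower (median -0.01); Mlxipl, the carbohydrate-responsive factor ChREBP, rose by 0.48 ± 0.11, and fatty acid synthase Fasn, chosen after its values were seen, ranged from 235 to 2040 CPM in WT NASH and from 174 to 1940 in FAAH S268D NASH-AA (-0.88 ± 0.53, not called). The second gene, pyruvate kinase Pklr (0.48 ± 0.19, adjusted p = 0.0496), was not called in 12 of the 16 fits that left out 1 library. Of 24 cholesterol genes 23 had a negative difference, but 2 were called lower and 1 higher; 6 were lower without WT NASH replicate 7 or FAAH S268D NASH-AA replicate 3. Squalene epoxidase Sqle fell from 0.712, 2.36 and 4.79 CPM to 0, 0.263 and 1.13 (-2.69 ± 0.73). Among 25 PPARα targets 5 were higher and 4 lower (36.0% called, against 30.7% of all genes tested). Fgf21, a secreted hormone of the stressed liver, fell 4.59-fold without overlap, from 2.78, 6.42 and 9.41 CPM to 0.529, 1.5 and 2.65 (-2.20 ± 0.46), while the carnitine transferase Cpt1a moved by -0.30 ± 0.10. The count of higher members was 1 without WT NASH replicate 4 or FAAH S268D NASH-AA replicate 1 or 8, 2 without WT NASH replicate 7, and 3 without WT NASH replicate 3 or 6 or FAAH S268D NASH-AA replicate 6.

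Apolipoprotein A-IV (Apoa4) changed more than any other gene of the lipoprotein list. Its mRNA was at 1380, 3560 and 5280 CPM in WT NASH and 301, 507 and 780 in FAAH S268D NASH-AA, without overlap, a 6.59-fold fall (-2.72 ± 0.37, adjusted p = 1.36e-05). Of its exon length 69.8% overlaps genes on the opposite strand, and the sources used here do not say if counting used strand. Of 19 tested genes of lipoprotein handling 4 rose and 5 fell (8 rose without WT NASH replicate 5 or FAAH S268D NASH-AA replicate 3). The phospholipid transfer protein Pltp fell by 0.92 ± 0.15 without overlap, and Apoc1 rose by 0.54 ± 0.12.

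The specialised hepatocyte programme was higher. All 22 hepatocyte markers tested had positive differences, 15 were called higher and 0 lower, and the median was 0.45. Alb went from 31400, 39800 and 51400 CPM to 53800, 58200 and 66800 without overlap (0.54 ± 0.11; chosen after its values were seen). Tryptophan dioxygenase Tdo2 rose by 0.53 ± 0.10 and prothrombin (F2) by 0.36 ± 0.07. Serpina1c, an α1-antitrypsin gene that shares most of its sequence with its relatives, rose by 1.27 ± 0.23. The markers of the list summed to 58800 to 88800 CPM in WT NASH and 94300 to 114000 in FAAH S268D NASH-AA, and macrophage markers to 1690 to 3540 and 1240 to 1820. Because CPM are shares of an adjusted library total, these sums can move together with every list above and below. The part of these sums in each was not tested.

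Both ends of the liver lobule took part. Of 14 periportal and urea cycle genes 9 rose and 0 fell (median 0.44), with histidine ammonia-lyase Hal from 88.7, 129 and 243 CPM to 227, 306 and 369 (1.15 ± 0.22, adjusted p = 0.000336) and the urea cycle enzymes Otc and Asl by 0.63 ± 0.11 and 0.80 ± 0.17. Of 14 pericentral genes 8 rose and 1 fell (median 0.40), among them Cyp1a2 (1.21 ± 0.22), the glutamate transporter Slc1a2 (0.69 ± 0.15) and the alcohol-oxidising Cyp2e1 (0.68 ± 0.16). The pericentral count was 5 without WT NASH replicate 2, 4 or 7 or FAAH S268D NASH-AA replicate 8.

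Drug-metabolising cytochromes gave some of the highest rises. Of 28 tested genes 14 were called higher and 0 lower, with a median of 0.52. Cyp2c29, an epoxygenase that also takes arachidonic acid, went from 177, 418 and 1110 CPM to 1050, 1760 and 2070 (1.99 ± 0.29, adjusted p = 2.51e-05), with 1 control library just above the lowest mutant library. Cyp2c37 and Cyp2c50 rose 4.18-fold and 3.14-fold without overlap, and Cyp2c54 5.57-fold; these 3 share long stretches of sequence, and reads may have been divided between them. Cyp2b9 rose from 7.76, 56.3 and 97.7 CPM to 60, 298 and 599 (2.74 ± 0.46). Nr1i3, the nuclear receptor CAR that drives Cyp2b genes and was chosen after its values were seen, rose by 1.27 ± 0.24. The main pregnane-inducible gene, Cyp3a11, likewise chosen, was not called (-0.39 ± 0.20).

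Of 20 bile acid genes 10 were higher, 2 lower and 8 not called (median 0.48). Slc27a5, which activates bile acids for conjugation, rose from 425, 527 and 698 CPM to 737, 897 and 1040 without overlap (0.72 ± 0.11, adjusted p = 3.01e-05), and the uptake carrier Slco1b2 by 0.46 ± 0.10. Cyp7a1, the rate-limiting enzyme of the classical route, chosen after its values were seen, went from 19.4, 53.8 and 150 CPM to 49.3, 172 and 184 (1.28 ± 0.38, adjusted p = 0.0109). The 2 that fell are exporters. Slc51b is part of the basolateral carrier that bile acid load is known to induce (-2.59 ± 0.53, from a median of 0.575 CPM to 0.0943). Abcb4 moves phospholipid into bile (-0.38 ± 0.09).

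Sex-biased and growth hormone genes gave a mixed pattern. Of 20 tested, 8 were higher and 1 lower (2 lower without FAAH S268D NASH-AA replicate 3), with a median of 0.43. The growth hormone receptor Ghr went from 303, 344 and 433 CPM to 456, 545 and 624, without overlap (0.63 ± 0.08, adjusted p = 4.91e-06), and Susd4, a complement regulator, from 3.74, 10.2 and 16.8 to 18.6, 35.4 and 45.5, also without overlap (1.99 ± 0.31). Major urinary proteins, pheromone carriers that male mice make in excess, moved in opposite directions: Mup3 rose by 1.41 ± 0.30 while Mup20 fell from 3090, 5000 and 7950 CPM to 1620, 2250 and 3400 (-1.14 ± 0.20). Genes that female livers make in excess also rose, Cyp2b9 above, its relative Cyp2b13 (3.19 ± 0.73) and the hydroxyacid oxidase Hao2 (2.51 ± 0.54). Cyp2b13 has a close copy in Gm45225, so its reads are uncertain. The Mup genes named here other than Mup3 are close copies of others, so the share of each is uncertain. Mup20 shares 51.2% of its stretches of 31 bases with the pseudogene Mup-ps19. Mup3 shares 16.9% with its closest relative, Mup21, and 30.1% with any other gene.

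Of 18 clock genes 10 were higher and 1 lower (median 0.36; 0 lower without WT NASH replicate 2, 4 or 8 or FAAH S268D NASH-AA replicate 1, 2 or 5, and 2 lower without replicate 3 of the latter), with the output factors Hlf (0.51 ± 0.10) and Tef (0.48 ± 0.12) and the repressor Cry1 (0.71 ± 0.17) among them; the sources used here do not give the time of collection. Acute-phase genes divided, 8 of 23 higher and 3 lower, with Itih4 (0.73 ± 0.17), Saa4 (1.06 ± 0.24) and Serpina3m, which has a close copy in Serpina3k (0.93 ± 0.15), higher and the copper carrier Cp (-0.41 ± 0.09) lower. Markers of tissue that a liver piece could also hold gave no common direction. Of 4 adipocyte genes Car3, also made by hepatocytes, rose by 1.20 ± 0.18 while Fabp4 fell by 0.73 ± 0.19 and Aqp7 by 3.26 ± 0.87. Of 6 erythroid genes only Alas2 was called (0.64 ± 0.16) and Hbb-bs was at -0.07 ± 0.25, and the 1 exocrine pancreas gene tested, Cela1, was not called (0.49 ± 0.21).

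Some of the steepest changes were in genes not yet described, of which Mup1 is a member of the growth hormone list and the others of none. Among the higher genes, the lipocalin Obp2a rose 16.2-fold from a median of 0.119 CPM to 1.58 (4.01 ± 0.97, adjusted p = 0.00227), and Mup7, Mup1 and Mup12 rose 15-fold, 9.50-fold and 8.90-fold with wide spread. Grm8, a glutamate receptor, rose 6.18-fold. Mup13 (2.54 ± 0.91), Mup15 (2.63 ± 0.95) and Mup17 (2.33 ± 0.78) were called but lost the call in 7, 9 and 3 of the 16 fits that left out 1 library. Among the lower genes were the signalling adaptor Shc2 (-4.43 ± 1.12), the cornified-envelope gene Sprr1a (-3.90 ± 1.30), the scaffold genes Sdcbp2 (-3.70 ± 1.02) and Gipc2 (-3.41 ± 0.88), the actin bundler Pls1 (-3.70 ± 0.95) and the synaptic protein gene Insyn1 (-3.32 ± 0.94).

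The genes with the widest empty interval between the groups are the most sharply separated. Tlr12, an endosomal receptor for a parasite profilin that lies 12.6 Mb from Faah, was at 21.9, 33.6 and 39.9 CPM in WT NASH and 3.12, 4.11 and 5.94 in FAAH S268D NASH-AA (-2.99 ± 0.24, adjusted p = 2e-10). Serinc2, a membrane protein 14.2 Mb from Faah, fell 11.2-fold (-3.49 ± 0.31), and the receptor tyrosine kinase Ephb2, 20.6 Mb away, 16.2-fold (-4.02 ± 1.03). Extl1, a heparan sulfate synthesis gene 18.3 Mb away, rose from 8.37, 10.9 and 21 CPM to 34.7, 42.4 and 49.7 (1.71 ± 0.15), and the acyl-CoA thioesterase Acot11, 9.16 Mb away, from 17.7, 23.9 and 43.0 to 62.9, 70.9 and 77.3 (1.46 ± 0.15). Of Acot11 20.9% of the exon length overlaps other genes.

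On other chromosomes the organic anion carrier Slc22a7 rose from 4.05, 6.12 and 7.09 CPM to 17.9, 26.4 and 60.7 (2.31 ± 0.46), Chic1 on chromosome X by 2.17 ± 0.33 and the peptidase Trhde by 2.30 ± 0.36. Fam83a, a gene raised in several cancers, fell from 5.93, 15.3 and 20.5 CPM to 0.793, 1.27 and 2.54 (-3.30 ± 0.63), and the semaphorin Sema3b by 2.62 ± 0.53. Every one of these 12 genes, Cyp2c50 and Apoa4 included, kept its direction and its call in each of the 16 fits that left out 1 library.

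**Figure D4:**
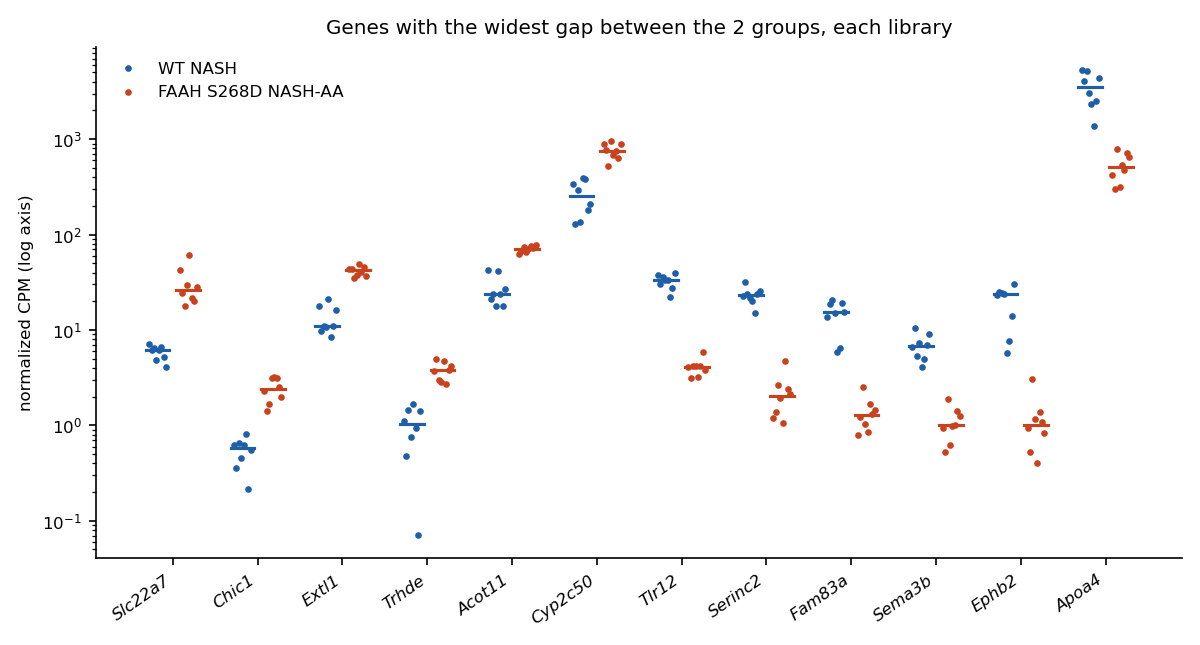
Normalised CPM of each library (log axis) for the 6 higher and 6 lower genes with the widest interval between WT NASH (blue) and FAAH S268D NASH-AA (red); bars are medians. In none of the 12 do the 2 groups overlap, and Trhde has 1 low control library at 0.0712 CPM.

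The combined contrast was then set against each change on its own. Against WT NASH-AA, which removes the diet, 98 genes were called (0.658%), 52 higher and 46 lower. They were concentrated around Faah: 46 of the 608 genes within 40 Mb (7.57%) against 52 of 14295 others (0.364%). Serinc2 (-2.89 ± 0.32), Tlr12 (-2.45 ± 0.24), Extl1 (0.90 ± 0.14) and Acot11 (0.83 ± 0.15) were among them. Csad, on chromosome 15, was also called (-1.17 ± 0.17, adjusted p = 6.4e-05), as was Chic1 (1.24 ± 0.29, adjusted p = 0.0319). The count was 188 without WT NASH replicate 5, whose values enter this test only through the normalisation and the shared spread, and 366 without both crossing libraries.

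Against FAAH S268D NASH, which removes the genotype, 14 genes were called (0.0939%), 4 higher (0.0268%) and 10 lower (0.0671%). Without FAAH S268D NASH-AA replicate 3 there were 50, and without replicate 1, 2, 6, 7 or 8 of that group between 6 and 8. The comparison group holds the library of fewest counts, FAAH S268D NASH replicate 1. Without it, an alternative chosen after seeing the data, 11 genes were called here and 4850 in the combined contrast. The genes called in the combined contrast and in both of these tests numbered 4. St3gal3, a sialyltransferase 1.91 Mb from Faah, stood at 85.1, 104 and 122 CPM in WT NASH and 57.3, 65.3 and 74.4 in FAAH S268D NASH-AA, and differed from the diet alone by -0.50 ± 0.07 and from the genotype alone by -0.42 ± 0.07. Pglyrp2, an amidase that the liver secretes to digest bacterial peptidoglycan, went from 112, 124 and 146 CPM to 82.5, 88.5 and 91.9, and differed by -0.43 ± 0.07 and -0.44 ± 0.07. Apoa4 differed by -1.47 ± 0.36 and -2.30 ± 0.36. The remaining one is the unnamed RNA gene Gm35696, which rose.

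The departure from additivity, the combined difference less the sum of the 2 single ones, was called in 0 of 14903 genes by limma-voom and in 0 by limma-trend. At an unadjusted p under 0.05 there were 627 (4.21%). For the 3 named genes above it was -1.05 ± 0.53 in Apoa4, -0.27 ± 0.10 in St3gal3 and -0.33 ± 0.11 in Pglyrp2. A count of 0 at these SE does not show that the changes add up.

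Both single contrasts and the combined one use the same WT NASH libraries, so their values are set side by side and not correlated. Csad differed from WT NASH by -0.11 ± 0.18 with the ARA diet alone, by -1.0 ± 0.17 with the substitution alone and by -1.27 ± 0.17 with both. Apoa4 differed by -1.25 ± 0.39, -0.42 ± 0.39 and -2.72 ± 0.37, in the same order. Fads2 differed by -0.59 ± 0.31, -0.19 ± 0.31 and -1.33 ± 0.30, Ccl9 by -0.75 ± 0.14, -0.54 ± 0.15 and -1.19 ± 0.15, and Cyp2c29 by 1.16 ± 0.28, 0.95 ± 0.28 and 1.99 ± 0.29. The median over macrophage markers was -0.70 with the diet, -0.93 with the substitution and -1.28 with both. For cytokines these medians were -0.53, -0.92 and -1.22, and for polyunsaturated fatty acid genes -0.58, -0.24 and -0.88.

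**Figure D5:**
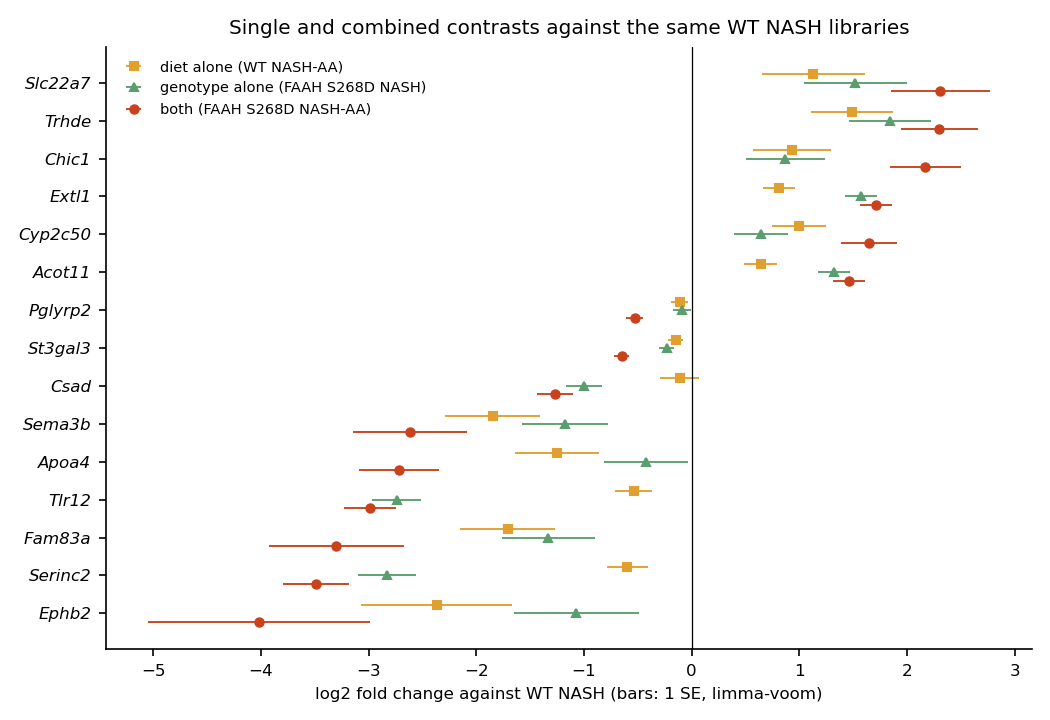
Log2 fold change against WT NASH (x axis) of named genes (y axis) for the diet alone, the substitution alone and both, with bars of 1 SE from limma-voom; all 3 share the WT NASH libraries. Csad and Tlr12 lie near their combined value with the substitution alone, and Apoa4 lies beyond both single values.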

How the data were processed

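RNA was sequenced from whole liver in 32 libraries, 8 in each of 4 groups. STAR 2.7.10, UMI-tools 1.1.2, Trim Galore 0.6.7 and the build GRCm38 are named, with no order or settings, per the submitters' processing notes; which program counted, and if by strand, was not given in the sources used here. The authors deposited a table of counts for 55487 genes, in which 87.9% of cells are whole numbers and 11.4% carry a digit-grouping mark, 0.464% a clock time and 0.107% a fraction of a day, forms that a spreadsheet gives to numbers. These cells were turned back into counts, with 2 possible originals in 0.208% of cells. Because the deposited cells are of another kind than plain counts, limma-voom (limma 3.58.1, R 4.3.3) was used and no count model.

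Genes with at least 10 counts in a library of median depth in 8 libraries and 15 in total were kept (14903). TMM factors trimmed 30% of log ratios and 5% of levels. The model had 1 mean per group over all 32 libraries, so that the spread was shared, and p-values were adjusted by Benjamini and Hochberg over all genes tested. Simulated data with 100 genes changed 2-fold and 100 changed 4-fold gave 82 and 93 calls, with 10 false calls of 185. The 36 gene lists and the members were chosen with earlier results of these data known. Named genes are Faah, the 12 rises and 12 falls of greatest size and the 6 rises and 6 falls with the widest gap (predicted genes left out, mean of at least 1 CPM and 7 of 8 libraries on their own side for the changes of greatest size), up to 4 members per list by the smallest p, and genes called beyond both single contrasts. Alternatives were other scaling, filters, blocks, weights, limma-trend, either range of library numbers, and each library left out in turn. Figures were drawn with matplotlib 3.10.9.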

Additional observations from a re-analysis of the deposited data

Results flagged for a closer look

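In 50 of 414 sets of 8 values examined, the highest or the lowest library stood apart from the other 7 by more than Dixon's critical share of the group's range. For genes and total counts the rule was applied on the log2 scale, while gene values are printed below in CPM. Chance alone marks about 1 in 20 such sets, and genes of a list are not independent. In WT NASH replicate 5 the CPM value stood apart for Gipc2 at 0.247 (others 1.71 to 5.74), Mlxipl at 376 (others 257 to 297), Pla2g4a at 1.48 (others 2.63 to 3.53) and Ptger4 at 0.618 (others 1.48 to 2.78). The same library stood apart in CPM for Tdo2 at 1050 (others 620 to 767), G6pdx at 5.15 (others 9.14 to 12.9), Atf3 at 2.64 (others 6.59 to 13.4) and Fcer1g at 12.2 (others 23.6 to 34.0). The same library stood apart in CPM for Cd68 at 23.3 (others 42.5 to 72.3), Il18bp at 12.7 (others 23 to 37.2), Ccl9 at 18.2 (others 31.1 to 42.3) and Cxcl16 at 13.6 (others 22.7 to 33.3). The same library stood apart in CPM for Ifit2 at 6.05 (others 8.86 to 12.2), Gbp2 at 7.78 (others 14.2 to 24.2), Vim at 37.4 (others 58.9 to 74.2) and Mrc1 at 35.9 (others 55.1 to 73.9). The same library stood apart in CPM for Aurkb at 0.741 (others 1.16 to 1.64) and Tpx2 at 1.07 (others 2.17 to 3.45). The list score of WT NASH replicate 5 stood apart for eicosanoid synthesis and receptors at -0.46 (others 0.11 to 0.45), PPARα targets and fatty acid oxidation at 0.46 (others -0.11 to 0.08), monocyte and lipid-associated macrophage markers at -0.47 (others 0.65 to 1.43) and cytokines, chemokines and adhesion at -0.19 (others 0.56 to 1.14). Its list score also stood apart for stellate cell activation and extracellular matrix at -0.26 (others 0.31 to 0.74), oncofetal and tumour-associated genes at -0.25 (others 0.67 to 1.21) and cell division at -0.23 (others 0.34 to 0.84). In WT NASH replicate 7 the CPM value stood apart for Trhde at 0.0712 (others 0.475 to 1.69), Fads2 at 691 (others 1060 to 1440), Itih4 at 3160 (others 1050 to 1640) and Pax5 at 2.78 (others 0.620 to 1.27). WT NASH replicate 7 had a list score apart from the rest for acute-phase proteins at 0.77 (others -0.50 to 0.10) and B and plasma cell markers at 1.25 (others -0.67 to 0.11). In WT NASH replicate 6 the CPM value stood apart for Fgf21 at 2.78 (others 5.34 to 9.41). The list score of WT NASH replicate 4 stood apart for apolipoproteins and lipoprotein handling at -0.20 (others 0.01 to 0.08). In FAAH S268D NASH-AA replicate 5 the CPM value stood apart for Cyp2b13 at 2.19 (others 12.5 to 52.7), Tbxas1 at 1.70 (others 3.51 to 5.40) and Aurkb at 0.0896 (others 0.347 to 0.933). FAAH S268D NASH-AA replicate 5 had a list score apart from the rest for FAAH and N-acyl amide metabolism at -0.24 (others 0.00 to 0.12). In FAAH S268D NASH-AA replicate 3 the CPM value stood apart for Grm8 at 0.459 (others 1.69 to 2.64), Abhd6 at 32.4 (others 45.3 to 60.2), Dgat2 at 498 (others 641 to 706) and Cyp2e1 at 5550 (others 7640 to 9540). The same library stood apart in CPM for Susd4 at 18.6 (others 31.8 to 45.5), S100a8 at 1.87 (others 0.344 to 0.743) and Alas2 at 67.0 (others 102 to 121). The list score of FAAH S268D NASH-AA replicate 3 stood apart for neutrophil markers at 0.47 (others -0.98 to -0.39). In FAAH S268D NASH-AA replicate 7 the CPM value stood apart for Tlr12 at 5.94 (others 3.12 to 4.23). FAAH S268D NASH-AA replicate 7 had a list score apart from the rest for periportal zonation and urea cycle at -0.06 (others 0.14 to 0.32). In FAAH S268D NASH-AA replicate 2 the CPM value stood apart for Sqle at 0 (others 0.195 to 1.13). The list score of FAAH S268D NASH-AA replicate 2 stood apart for acute-phase proteins at -0.64 (others -0.19 to 0.21). FAAH S268D NASH-AA replicate 8 had a list score apart from the rest for T and NK cell markers at 0.14 (others -0.61 to -0.30). WT NASH replicate 5 accounts for most of the values that stand apart in its group, and it is also the control library nearest to FAAH S268D NASH-AA on the first principal component.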

How the results depend on the processing

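With libraries 1 to 16 alone, 1491 genes were called (620 higher, 871 lower), 19 against the diet alone and 0 against the genotype alone, 3528 genes did not overlap, and Faah was at 0.28 (adjusted p = 0.0726, limma-voom). With libraries 17 to 32 alone these were 2305 (905 and 1400), 41, 372, 1969 and 0.20 (adjusted p = 0.111); fewer samples enter both. Without TMM, 749 were higher and 4704 lower, 25 were called against the genotype alone, and Faah was at 0.07. Sample quality weights gave 3127 higher, 756 and 1062; limma-trend gave 41 and no filter 6 against the genotype alone. Without both crossing libraries, an alternative chosen after seeing the data, 366 and 71 were called and 2427 did not overlap. Leaving out 1 of the 16 libraries at a time gave 3868 to 5252 calls, 1710 to 2451 higher, 2136 to 2801 lower, 66 to 188, 6 to 50 and 0 in the tests against single changes and additivity, 435 to 1694 without overlap (424 without FAAH S268D NASH replicate 1, a library of neither group, left out after seeing the data), and Faah at 0.21 to 0.28. Of the calls 3399 (74.4%) held in each of these fits.

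The replicate block gave 4106 calls, 63 against the diet alone, 8 against the genotype alone and 0 for additivity. The labels do not state that replicate numbers pair the samples. Same-numbered deviations correlated at -0.08 to 0.28 (median -0.05, against -0.02 for different numbers), and 2 of 8 were best with their own number. So few pairs cannot settle if the numbers stand for a pairing.

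Of all called genes, 66 took the opposite sign without TMM and 6 with libraries 17 to 32 alone. Among the named genes and list medians, directions turned only in genes that were not called and in 3 medians. With libraries 17 to 32 Sdc1 was at -0.09, Pax5 at -0.44 and Ighd at -0.14. With libraries 1 to 16 Slc4a1 was at -0.19 and Hbb-bt at 0.03, and the stress response list had a median of -0.14. With quality weights Hbb-bs was at 0.06 and Hbb-bt at 0.10. Without TMM Slc4a1 was at -0.05 and the lipoprotein median at -0.04; the eicosanoid median was 0.11 under the stricter filter, and Slc4a1 was at -0.01 without both crossing libraries. Over all fits leaving out 1 library, Hbb-bs ranged from -0.24 to 0.08, Slc4a1 from -0.15 to 0.32 and Hbb-bt from -0.22 to 0.09. The turned values were, for Hbb-bs, 0.01, 0.02, 0.05 and 0.08, for Slc4a1 -0.05, -0.06 and -0.15, and for Hbb-bt 0.00, 0.02, 0.04, 0.07, 0.08 and 0.09. The cause was not tested in any of these.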
